A study of Oryza sativa with 9 samples.

Results

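Seed transcripts of the rice line P1MH, which carries the amino acid change G401S in the RNA-binding protein RBP-P, were compared with those of wild type (WT). The comparison used 6 of the 9 libraries of the study, 3 biological replicates of each genotype, and every locus averaging at least 1 RPKM across the 9 libraries, which left 16064 of the 55986 loci in the deposited table. RPKM corrects a read count for the exon length of the locus and for the depth of the library. All libraries were made with a ScriptSeq v2 kit from total RNA of dehulled developing seeds (Oryza sativa) taken 10 to 14 days after flowering, from plants kept in growth chambers at 27 °C under cycles of 12 h light and 12 h dark. The remaining 3 libraries came from a second mutant line, P3MH, with the change A252T in RBP-P. The sources used here do not give the cultivar or the origin of the lines. Each mutation is represented by 1 line, so that other differences between that line and WT cannot be told apart from the change in RBP-P.

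In the seed endosperm, RBP-P binds the messenger RNAs of glutelins and prolamines, the main storage proteins of rice. These messengers are carried to different regions of the cortical endoplasmic reticulum (ER), where their proteins are made. At the stage sampled, the starchy endosperm fills with starch and storage protein, while the embryo and the surrounding aleurone layer mature and begin to make proteins of desiccation tolerance and oil storage.

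Library totals, worked out from the steps between low RPKM values, were 6814570 to 7498434 reads in WT and 5865007 to 6522918 in P1MH. At 1 kilobase of exon, 3 reads corresponded to 0.400 to 0.512 RPKM in these 6 libraries. On the log2 scale, libraries of the same genotype correlated at 0.974 to 0.984 in WT and at 0.952 to 0.964 in P1MH, and libraries of different genotypes at 0.916 to 0.941. Of the values above 0, 40.8 to 42.3% in the WT libraries lay midway between whole reads, and 0.0% in every mutant library. This difference in the spacing of the values runs with genotype, and its part in the results was not tested. The totals were sought within a set range of read numbers. A larger WT total would turn the midway values into whole reads, so the WT totals and read numbers depend on that range. Markers of the starchy endosperm were checked against the tissue label. All 8 were detected in all 6 libraries, with a summed level of 53043 to 56926 RPKM in WT and 71615 to 74362 RPKM in P1MH. Most of the sum came from GluA-1 (means 13988 and 22462 RPKM) and a glutelin locus with no checked name (32779 and 42979 RPKM). In the values as deposited, limma called 1 of the 8 higher and 0 lower, and their median log2 fold change was 0.09. The markers thus did not rise as a set.

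The transcript of RBP-P itself was examined first. It stood at 16.2, 12.9 and 12.7 RPKM in WT and at 10.9, 10.4 and 7.04 RPKM in P1MH. No P1MH library reached the lowest WT library. The change was -0.53 on the log2 scale (SE 0.19, limma adjusted p = 0.107; after rescaling -0.43, adjusted p = 0.212), so the difference did not pass the test. Fold changes throughout are on the scale of log2(RPKM + 1), which understates the change of low genes. Rescaling divided each library by its median ratio to the 9 libraries, with factors of 1.047 to 1.094 in WT and 0.965 to 1.019 in P1MH. A change of 1 amino acid need not alter the transcript level, so these values are no check of the genotype labels.

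Across the transcriptome, 511 loci were higher in P1MH (3.18% of those tested) and 905 were lower (5.63%) at a limma adjusted p under 0.05 in the values as deposited, 8.81% in all. After median-ratio rescaling, 659 loci were higher (4.10%) and 577 were lower (3.59%), 7.69% in all. The share of higher loci among all calls was thus 36.1% before and 53.3% after rescaling. The median log2 fold change of all tested loci was -0.10 before and -0.01 after, a shift of 0.10 that the rescaling removed. The calls made under both scalings were 510 higher loci (3.17%) and 577 lower loci (3.59%), 6.77% in all, and no locus was called in opposite directions. A gene is said to have risen or fallen below when it was called under both scalings, unless 1 of them is named.

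**Figure D1:**
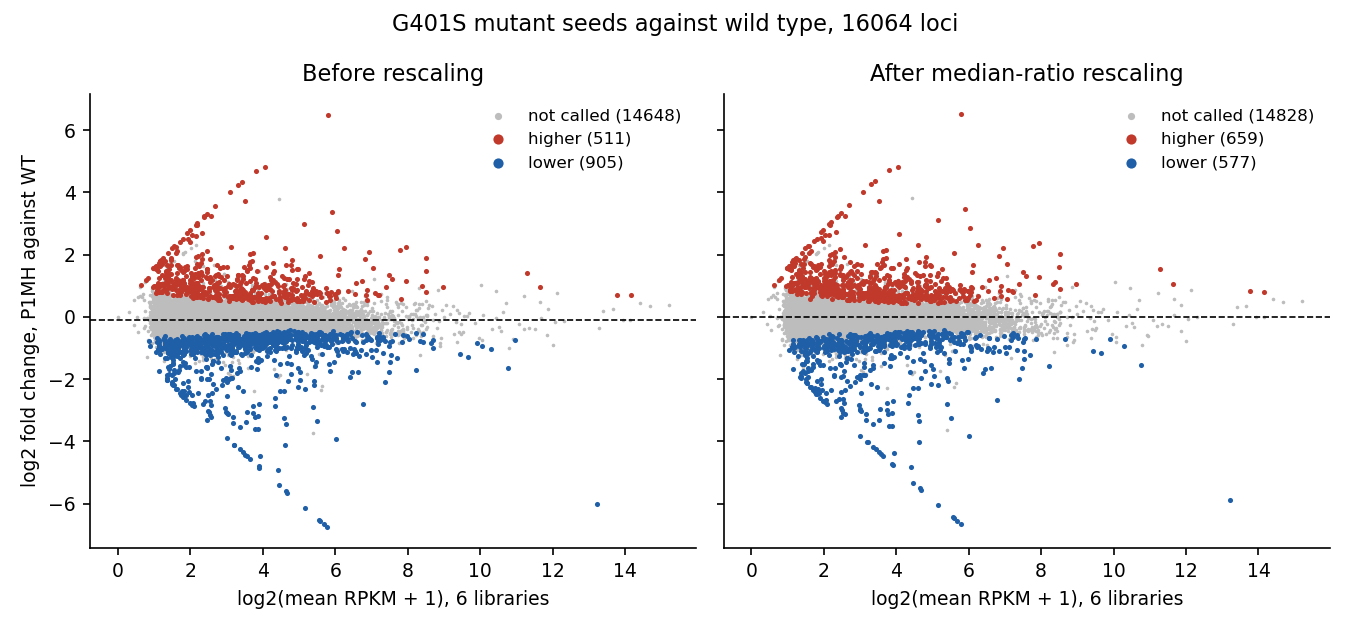
Log2 fold change of P1MH against WT for the 16064 tested loci, plotted against the log2 mean level (RPKM + 1) over the 6 libraries, before (left) and after (right) median-ratio rescaling. Red points are loci called higher, blue points loci called lower and grey points loci not called; the dashed line marks the median of all loci, which moves from -0.10 to -0.01 while the lower calls go from 905 to 577.

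The median levels of the 2 directions follow in part from sorting loci on these same values, so they are a description only. Loci that rose had a median of mean levels of 4.50 RPKM in WT and 10.5 RPKM in P1MH, and loci that fell one of 14.4 RPKM in WT and 4.80 RPKM in P1MH. Over all tested loci the WT median was 6.48 RPKM. The median log2 fold change was 0.97 for the loci that rose and -1.02 for those that fell. In the values as deposited, 243 higher and 328 lower calls were changed at least 2-fold, and 44 higher and 105 lower calls at least 4-fold. Of the 1087 loci called under both scalings, 1084 had groups that did not overlap. With 3 libraries per genotype, a call on these same values nearly requires this, so it adds no support. Over all tested loci, P1MH lay above every WT library at 9.70% and below every WT library at 21.5%.

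Calls in both directions were denser among strongly expressed loci. The lower calls made up 4.0% of loci with a mean of 1 to 5 RPKM, 5.73% of those at 5 to 20 RPKM, 8.57% at 20 to 100 RPKM, 13.2% at 100 to 1000 RPKM and 11.4% of the 44 loci above 1000 RPKM before rescaling. After rescaling the same shares were 2.79, 3.71, 4.89, 7.12 and 6.82%. The higher calls made up 2.88, 2.92, 4.06, 6.07 and 9.09% of the same groups before rescaling and 3.22, 4.29, 5.54, 6.86 and 9.09% after it. All chromosomes took part, with 7.66% of loci called before rescaling on chromosome 3 and 10.5% on chromosome 6 as the extremes. Single libraries weighed on these counts. Without WT-2 or WT-3 the higher calls before rescaling numbered 254 and 218, without P1MH-1 303, and the lower calls numbered 461 without WT-2, 404 without WT-3 and 529 without WT-1. After rescaling the higher calls numbered 317 without WT-2, 255 without WT-3 and 402 without P1MH-1, and the lower calls 279 without WT-2 and 260 without WT-3.

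Glutelins, the most abundant seed storage proteins of rice, were among the strongest transcripts measured. GluA-1 (LOC_Os01g55690, chromosome 1, 32076732 to 32078743 in the coordinates of the deposited table) stood at 15672, 13371 and 12922 RPKM in WT and at 20680, 24403 and 22303 RPKM in P1MH. GluA-2 (LOC_Os10g26060, chromosome 10, 13497239 to 13499435) stood at 11703, 10549 and 9752 RPKM in WT and at 16309, 18219 and 17592 RPKM in P1MH. For both genes every P1MH library was higher than every WT library. The ratio of mean RPKM was 1.61 for GluA-1 (log2 change 0.69, SE 0.19, limma adjusted p = 0.0464; 0.0252 after rescaling). For GluA-2 it was 1.63 (log2 change 0.71, SE 0.19, limma adjusted p = 0.0369; 0.0205 after rescaling).

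Of the 11 glutelin loci tested, 3 rose and none fell, beside 3.17% and 3.59% of all tested loci. The median log2 fold change of the list was 0.35 before and 0.47 after rescaling. The third locus that rose has no checked name. GluB-5 averaged 18294 RPKM in WT and 25100 in P1MH (log2 change 0.46, limma adjusted p = 0.136), and GluB-4 averaged 18679 and 17470 RPKM (-0.10, limma adjusted p = 0.792; 0.01 after rescaling). GluA-3, at 23231 and 29592 RPKM, and GluB-2, at 11858 and 14077 RPKM, did not pass the test either. Glutelin genes are near-identical within subfamilies, and the sources used here do not say how reads shared between them were counted, so single genes of the family are uncertain. The 3 calls before rescaling were lost without WT-2, WT-3, P1MH-1, P1MH-2 or P1MH-3, each leaving 0, and by blocking on the replicate number, also leaving 0. After rescaling 0 were left without WT-2, WT-3 or P1MH-3 or with the block, and 1 without P1MH-2. Quantile normalization left 1 of the 3, ending the calls of GluA-1 and GluA-2, and the GluA-1 call was also lost with the 6 libraries of WT and P1MH alone.

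Summed over the list, glutelins held 27.8, 27.0 and 26.3% of all RPKM in WT and 33.9, 35.4 and 36.1% in P1MH. The groups did not overlap, and the difference of 8.13 percentage points had a two-sided exact permutation p = 0.1, the smallest that 3 against 3 libraries can give. The 10 highest loci of all held 29.8 to 31.0% of RPKM in WT and 37.8 to 39.6% in P1MH (difference 7.85 points, exact permutation p = 0.1). The gap depended on this cut. For the 50 highest loci the difference was 3.51 points (exact permutation p = 0.1), and for the 100 highest 3.30 points (exact permutation p = 0.2). The locus of rank 11 by mean went the other way, with 1.53 to 4.75% in WT and 0.0170 to 0.0896% in P1MH. RPKM is a relative measure within a library. Whether these shares bear on the calls at other loci was not tested.

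**Figure D2:**
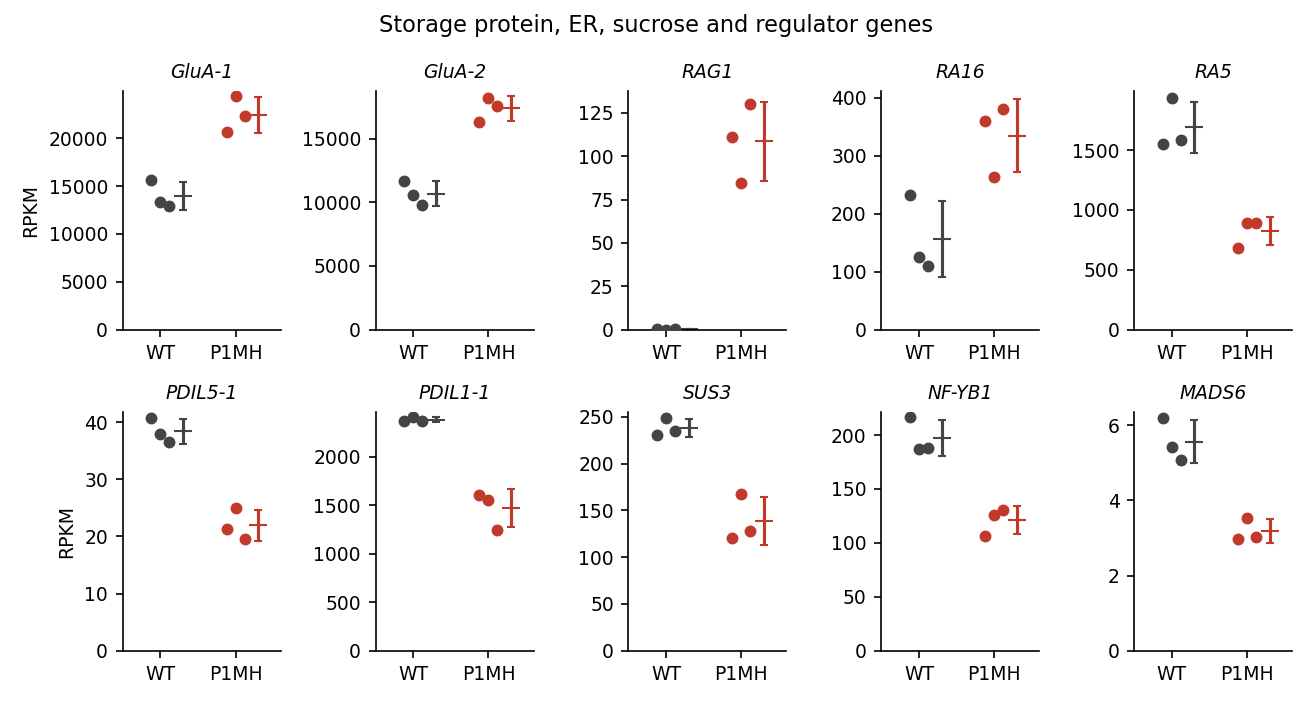
RPKM of 10 storage protein, ER, sucrose and regulator genes in each of the 3 WT (grey) and 3 P1MH (red) libraries, with the group mean and SD beside the points; each panel has its own axis from 0. GluA-1, GluA-2, RAG1 and RA16 are higher in every P1MH library than in any WT library, and the other 6 genes are lower in every P1MH library.

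Seed albumins of the alpha-amylase and trypsin inhibitor family, known as rice seed allergens, moved in both directions. RAG1 (LOC_Os07g11360, chromosome 7, 6254861 to 6255627) was nearly absent from WT at 0.287, 0.0869 and 0.276 RPKM and reached 111, 84.6 and 130 RPKM in P1MH. At the library totals given above, the WT values add up to 3.5 reads, all 3 libraries lying midway between whole reads, against 1569 reads in P1MH. The ratio of means was 501, with a counting interval of 174 to 1640 (log2 change 6.47, SE 0.19, limma adjusted p = 1.31e-10). In P3MH, which shares the WT libraries as controls, RAG1 stood at 77.1, 101 and 64.0 RPKM.

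RA16 (LOC_Os07g11410), a neighbour of RAG1 in the same family, rose from 232, 126 and 111 RPKM in WT to 360, 264 and 380 RPKM in P1MH (log2 change 1.16, SE 0.26, limma adjusted p = 0.0155; 0.0106 after rescaling). RA5 (LOC_Os07g11510), the most abundant of these albumins in WT, fell from 1553, 1935 and 1580 RPKM to 686, 892 and 889 RPKM (log2 change -1.04, SE 0.21, limma adjusted p = 0.00787; 0.0179 after rescaling). Neither gene's groups overlapped. The fourth, RAG2, averaged 708 RPKM in WT and 585 in P1MH (log2 change -0.16, limma adjusted p = 0.797). Together the 4 albumins summed to 2874, 2704 and 2084 RPKM in WT and to 1731, 1738 and 2083 RPKM in P1MH. The RA16 call was lost without WT-2, WT-3, P1MH-1 or P1MH-3 under at least 1 scaling (highest adjusted p = 0.0758) and the RA5 call without WT-2, WT-3 or P1MH-1 (highest adjusted p = 0.0944) or under quantile normalization, while RAG1 was called under every alternative tried.

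In the whole list of 9 prolamine, globulin and albumin loci, 3 rose and 1 fell, beside 3.17% and 3.59% of all tested loci. The median log2 fold change was 0.76 before and 0.88 after rescaling. The list holds no prolamine locus on chromosome 5, so it does not stand for prolamines as a class. Prolamines are alcohol-soluble storage proteins kept inside the ER. PROLM25, one of them, averaged 3276 RPKM in WT and 5682 in P1MH (log2 change 0.76, SE 0.25, limma adjusted p = 0.0812; 0.0548 after rescaling). The list held 2.21 to 3.00% of all RPKM in WT and 2.75 to 3.83% in P1MH (difference 0.83 points, exact permutation p = 0.2), with P1MH-1 inside the WT range. The 3 rises became 1 without WT-3 before rescaling and 5 without P1MH-1 after it.

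The steepest fall of any locus above 1000 RPKM, picked out after its values were seen, was on chromosome 5 (15338155 to 15338822). This locus has no checked name and is in none of the 20 lists. It stood at 8141, 26617 and 21534 RPKM in WT and at 481, 391.9 and 90.7 RPKM in P1MH. It took 1.53 to 4.75% of all WT RPKM and 0.0170 to 0.0896% of that of P1MH, with a log2 fold change of -6.01 (SE 0.86, limma adjusted p = 0.00475; 0.00297 after rescaling). WT-1 lay well below the other WT libraries, and every P1MH library lay far below WT-1. P3MH stood at 132, 593 and 775 RPKM.

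Starch synthesis is the main carbon sink of the endosperm. Of 28 loci tested, none rose and 3 fell before rescaling (10.7%, beside 5.63% of all loci), 2 of them also after it (beside 3.59% of all loci), and none of those has a checked name. The median log2 fold change was -0.11 before and -0.01 after, against -0.10 and -0.01 for all loci. BEI, the starch branching enzyme I, stood at 2570, 2240 and 2150 RPKM in WT and at 1835, 2380 and 1798 RPKM in P1MH, with overlapping groups (log2 change -0.22, limma adjusted p = 0.497). AGPS2, a small subunit of ADP-glucose pyrophosphorylase, which makes the substrate of starch synthases, stood at 1774, 1608 and 1462 RPKM and at 1240, 1427 and 1231 RPKM. Its groups did not overlap, but the difference did not pass the test (log2 change -0.31, limma adjusted p = 0.269). GBSSI, the granule-bound synthase of amylose, averaged 604 and 711 RPKM (0.23, limma adjusted p = 0.421).

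Among 17 genes of sucrose and carbon supply, SUS3 alone fell under both scalings, beside 3.59% of all tested loci. SUS3, a sucrose synthase that opens sucrose to metabolism in the seed, stood at 231, 249 and 235 RPKM in WT and at 120, 167 and 128 RPKM in P1MH (log2 change -0.79, SE 0.18, limma adjusted p = 0.0185; 0.0320 after rescaling). PPDKB, a pyruvate orthophosphate dikinase known from floury endosperm mutants, fell only in the values as deposited. It stood at 2441, 2535 and 2429 RPKM in WT and at 1398, 1805 and 1307 RPKM in P1MH (log2 change -0.73, SE 0.19, limma adjusted p = 0.0329; 0.0792 after rescaling). Both genes were lower in all 3 P1MH libraries than in any WT library. SUS4, another sucrose synthase, averaged 335 and 435 RPKM (0.37, limma adjusted p = 0.187). The transporters SUT1, which loads sucrose, and SWEET11, which releases it towards the filial tissue, averaged 45.2 and 47.8 RPKM and 333 and 415 RPKM. The SUS3 call was lost under at least 1 scaling without any 1 of WT-1, WT-2, WT-3, P1MH-1 or P1MH-3 (highest adjusted p = 0.129). It was also lost under quantile normalization, rescaling without the 50 highest loci and the replicate block after rescaling. The PPDKB call was also lost under quantile and upper-quartile rescaling and without the 50 highest loci.

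Of 14 transcription regulators of the endosperm, 2 fell and none rose, beside 5.63% of all loci lower before rescaling and 3.59% under both scalings. NF-YB1, an endosperm-specific subunit of the NF-Y complex, stood at 216, 187 and 188 RPKM in WT and at 106, 126 and 131 RPKM in P1MH (log2 change -0.70, SE 0.16, limma adjusted p = 0.0157; 0.0390 after rescaling). MADS6, a MADS-box factor of flower and endosperm, stood at 6.2, 5.42 and 5.07 RPKM and at 2.96, 3.55 and 3.03 RPKM (log2 change -0.65, SE 0.16, limma adjusted p = 0.0241; 0.0459 after rescaling). Neither gene's groups overlapped. After rescaling both calls were lost without each of the 6 libraries in turn, with adjusted p up to 0.121 for NF-YB1 and 0.150 for MADS6, and with the replicate block. Quantile normalization also ended the NF-YB1 call, and rescaling without the 50 highest loci the MADS6 call.

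Of 15 genes of protein folding in the ER, where glutelins and prolamines are made, 3 fell before rescaling and 2 also after it, beside 5.63% and 3.59% of all loci, and none rose. A negative log2 fold change was found for 14 of the 15 under both scalings, and for 62.4% of all tested loci before and 50.7% after rescaling. The list medians were -0.44 and -0.33. PDIL5-1, a protein disulfide isomerase-like protein, fell from 40.8, 37.9 and 36.5 RPKM in WT to 21.3, 25.0 and 19.6 RPKM in P1MH (log2 change -0.78, SE 0.14, limma adjusted p = 0.00511; 0.0151 after rescaling). PDIL1-1, the isomerase that helps proglutelin fold, stood at 2366, 2408 and 2370 RPKM and at 1603, 1559 and 1242 RPKM. Its groups did not overlap, but the difference did not pass the test under either scaling (log2 change -0.71, SE 0.21, limma adjusted p = 0.0532; 0.127 after rescaling). PDIL1-4 fell only before rescaling (527 to 310 RPKM, log2 change -0.75, limma adjusted p = 0.0269; 0.0612 after). BiP1, the main ER chaperone of the HSP70 family, stood at 1575, 1775 and 1893 RPKM and at 1526, 1149 and 1196 RPKM (-0.44, limma adjusted p = 0.251). CRT1, a calreticulin, averaged 287 and 193 RPKM (-0.60, limma adjusted p = 0.0866). The PDIL5-1 call was lost after rescaling without WT-1, WT-2, WT-3 or P1MH-3 (highest adjusted p = 0.0628).

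Oligosaccharyltransferase attaches N-glycans to proteins as they enter the ER. Its 5 named subunits were a family set up after values were seen. All had negative log2 fold changes before rescaling, as had 62.4% of all tested loci. Of the 5, 2 fell, beside 3.59% of all tested loci. DAD1 stood at 102, 116 and 176 RPKM in WT and at 62.9, 60.5 and 48.3 RPKM in P1MH (log2 change -1.15, SE 0.19, limma adjusted p = 0.00286; 0.00760 after rescaling). RPN-II stood at 61.8, 64.1 and 72.1 RPKM and at 40.1, 46.9 and 40.3 RPKM (-0.63, SE 0.13, limma adjusted p = 0.0113; 0.0295 after rescaling). STT3B, a catalytic subunit, averaged 28.3 and 20.1 RPKM (-0.47, limma adjusted p = 0.0554). In both called genes WT-3 was the highest WT library, and the groups did not overlap. Sel1, a part of the ubiquitin ligase complex that removes misfolded ER proteins, fell from 52.6, 63.6 and 63.1 RPKM to 32.2, 42.0 and 32.1 RPKM (-0.74, SE 0.15, limma adjusted p = 0.00847; 0.0185 after rescaling), as 1 of 5 genes of that pathway. DAD1 was called under every alternative, while RPN-II was lost without WT-2, WT-3, P1MH-1 or P1MH-3 or with the replicate block after rescaling and Sel1 after rescaling without the same 4.

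DNA replication genes were lower in P1MH. Of 14 tested, 9 fell under both scalings and none rose, against the background of 5.63% lower before and 3.59% after. The median log2 fold change of the list was -0.85 before and -0.76 after rescaling, and P1MH lay below every WT library at 13 of the 14, against 21.5% of all tested loci. PCNA, the sliding clamp that holds DNA polymerase on its template, stood at 13.5, 13 and 16.5 RPKM in WT and at 6.54, 8.41 and 5.76 RPKM in P1MH. Its highest P1MH value lay below its lowest WT value (log2 change -0.96, SE 0.16, limma adjusted p = 0.00270; 0.00516 after rescaling).

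The MCM proteins form the ring of the replicative helicase, and 5 of its 6 subunits fell. MCM2 stood at 6.68, 8.75 and 13.1 RPKM in WT and at 2.54, 4.67 and 3.15 RPKM in P1MH (log2 change -1.22, SE 0.24, limma adjusted p = 0.00760; 0.0133 after rescaling). MCM5 stood at 6.37, 6.02 and 8.87 RPKM and at 3.04, 2.50 and 3.00 RPKM (-1.06, SE 0.18, limma adjusted p = 0.00270; 0.00554 after rescaling). WT-3 was the highest WT library for each MCM gene called and for PCNA, and no P1MH value reached any WT value. MCM3 went from a mean of 10.8 to 4.52 RPKM, MCM6 from 5.0 to 2.14 RPKM and MCM7 from 3.68 to 1.45 RPKM, with log2 fold changes of -1.09, -0.91 and -0.92. MCM4, the remaining subunit, averaged 2.83 and 1.39 RPKM (-0.70, SE 0.26, limma adjusted p = 0.109). ORC2, a subunit of the origin recognition complex, was the 1 member with a positive value, at 4.26 and 4.94 RPKM (0.09, limma adjusted p = 0.868).

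**Figure D3:**
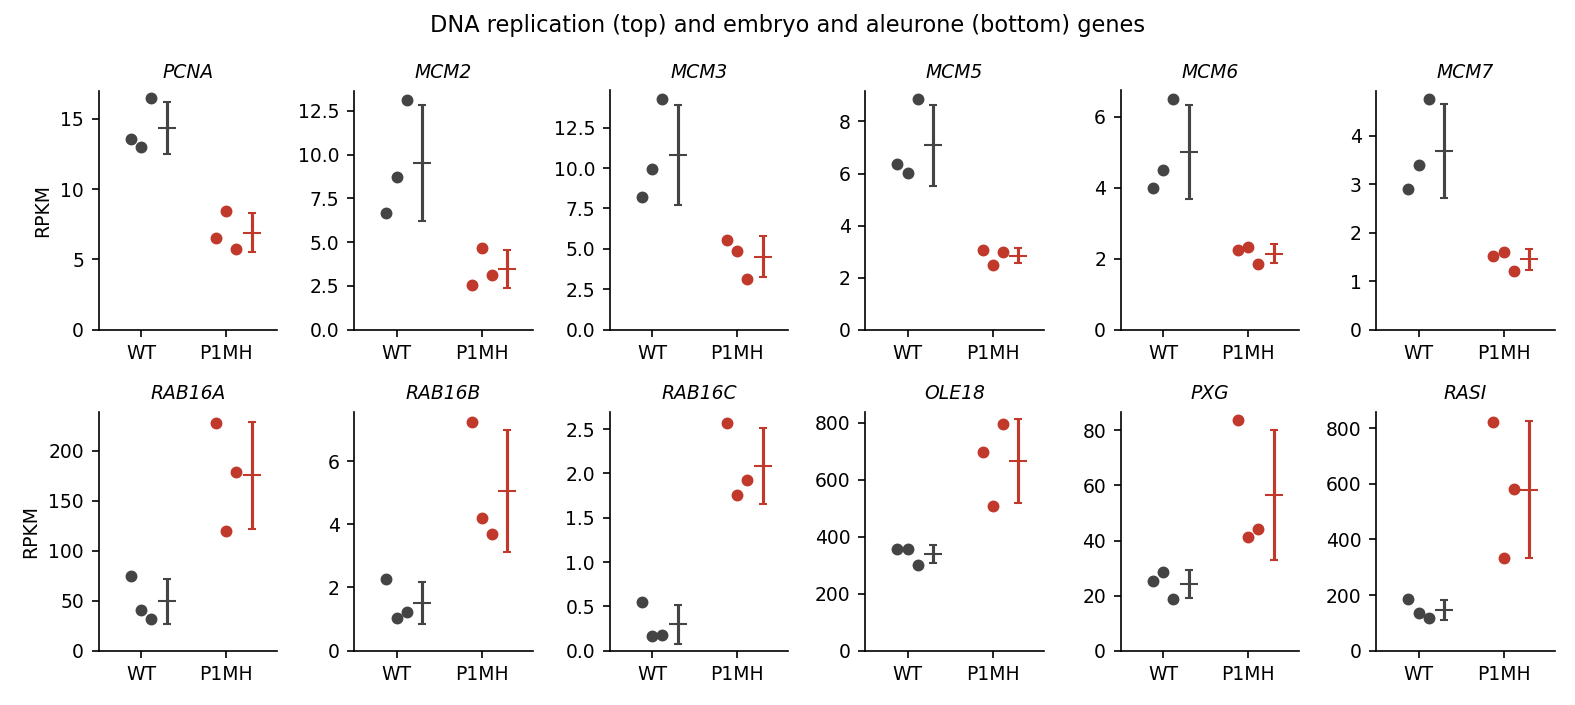
RPKM of 6 DNA replication genes (top) and 6 embryo and aleurone genes (bottom) in each of the 3 WT (grey) and 3 P1MH (red) libraries, with the group mean and SD beside the points; each panel has its own axis from 0. No P1MH library overlaps a WT library in any panel, and P1MH is lower in the top panels and higher in the bottom panels.

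The count of 9 rests in part on WT-3. Before rescaling it was 4 without WT-3 and 5 without P1MH-3, and after rescaling it was 3 without WT-2, 2 without WT-3, 4 without P1MH-1 and 4 without P1MH-3. PCNA and MCM5 were called under every alternative, with adjusted p up to 0.0346 and 0.0334. MCM2 was lost after rescaling without WT-3 (adjusted p = 0.0639), MCM3 without WT-2 or WT-3, and MCM6 and MCM7 without WT-2, WT-3 or any 1 P1MH library (highest adjusted p = 0.147 and 0.143), MCM6 also with the replicate block after rescaling. The 5 markers of dividing cells, PCNA, MCM2, MCM5, CDKB2 and CYCB2-2, summed to 32.1, 34.7 and 45.5 RPKM in WT and to 14.4, 19.5 and 16.6 RPKM in P1MH. The first 3 are replication genes already counted above and made up most of the sum, which therefore largely restates those calls. CDKB2 and CYCB2-2, with WT means of 4.55 and 1.95 RPKM, were not called. In such bulk samples, fewer dividing cells and less RNA per dividing cell cannot be told apart.

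Cell cycle regulators outside replication did not pass the test. None of the 13 tested was called by limma, with 6 at an unadjusted p under 0.05 before rescaling and 3 after it. Over all 16064 tested loci, 3968 and 3653 were under that p. The median log2 fold change of the 13 was -0.39 before and -0.31 after rescaling. CDKB2, the kinase of the G2 to M transition, averaged 4.55 and 2.61 RPKM (-0.64, limma adjusted p = 0.109), and the B-type cyclin CYCB1-1 averaged 2.9 and 1.77 RPKM (-0.50, limma adjusted p = 0.186). RBR2, a retinoblastoma-related protein, stood at 10.3, 10.2 and 10.7 RPKM in WT and at 7.58, 11.2 and 10.2 RPKM in P1MH. KRP1, an inhibitor of cyclin-dependent kinases, stood at 9.04, 9.22 and 8.92 RPKM and at 9.02, 10.8 and 9.08 RPKM. For both, P1MH overlapped WT. CYCD4-1, a D-type cyclin, lay on the other side at 1.06 and 2.21 RPKM (0.67, limma adjusted p = 0.0764).

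Families set up after values were seen, around origins, forks, spindle and chromatin, held further loci that fell. They were drawn from all tested loci, so list members can recur in them, as ORC1 and ORC2 do among the origin and fork proteins. Of all tested loci, 3.59% fell under both scalings. Of 19 origin and fork proteins, 17 had a negative log2 fold change before rescaling, beside 62.4% of all tested loci, and RPA3, RPA70B and POLD1 fell under both scalings, with ORC6 and ORC3 before rescaling only. RPA70B, a large subunit of the single-strand binding protein, stood at 2.46, 3.77 and 4.91 RPKM in WT and at 1.04, 1.35 and 1.0 RPKM in P1MH (log2 change -1.12, SE 0.21, limma adjusted p = 0.00593; 0.0104 after rescaling). POLD1, the catalytic subunit of DNA polymerase delta, stood at 9.63, 10.1 and 10.9 RPKM and at 5.15, 5.63 and 5.82 RPKM (-0.78, SE 0.15, limma adjusted p = 0.00586; 0.0151 after rescaling). Both genes separated the genotypes fully, and after rescaling both calls were lost without WT-2 or WT-3. RPA3, a small subunit of the same binding protein, averaged 7.31 and 3.45 RPKM (-0.95, limma adjusted p = 0.0205; 0.0330 after), a call lost without any library except P1MH-2, without a filter and with the replicate block after rescaling.

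All 7 beta-tubulins, the building blocks of microtubules, had negative log2 fold changes before rescaling, as had 62.4% of all tested loci. TUBB4 fell from 43.1, 36.9 and 40.0 RPKM to 17.9, 18.8 and 23.3 RPKM (-0.97, SE 0.17, limma adjusted p = 0.00374; 0.00776 after rescaling). TUBB6 fell from 11.7, 10.6 and 11.9 RPKM to 6.57, 6.21 and 5.18 RPKM (-0.83, SE 0.14, limma adjusted p = 0.00362; 0.00801 after rescaling). Both were called under every alternative, with groups well apart. TUBB3, the strongest of those called, fell before rescaling only (173 to 121 RPKM, limma adjusted p = 0.0339; 0.104 after). Among 22 kinesins, motors that move along microtubules, KIN5C fell (4.72 to 2.55 RPKM, -0.69, limma adjusted p = 0.0265; 0.0433 after), a call lost without WT-1, WT-2, WT-3, P1MH-1 or P1MH-3, in rescaling without the 50 highest loci and with the replicate block after rescaling.

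Of 6 histone H2B genes, 2 fell and 1 rose, beside 3.59% and 3.17% of all tested loci. Log2 fold changes were negative for 5 of the 6 under both scalings, beside 62.4% of all tested loci before and 50.7% after rescaling. The family medians were -0.46 and -0.36. H2B.3 fell from 25.5, 24.5 and 28 RPKM to 13.8, 16.7 and 15 RPKM (-0.74, SE 0.15, limma adjusted p = 0.00775; 0.0144 after rescaling). H2B.9 averaged 7.76 and 3.98 RPKM (-0.80, limma adjusted p = 0.0224; 0.0334 after). H2B.4 rose from 11.6, 7.82 and 6.10 RPKM to 14.6, 20.1 and 16.2 RPKM (0.95, SE 0.24, limma adjusted p = 0.0280; 0.0150 after rescaling). The groups of all 3 were separate. H2B genes are close copies of each other, so their single values are uncertain. H2B.3 was lost after rescaling without WT-2 or WT-3, H2B.4 without WT-2, WT-3, P1MH-2 or P1MH-3, and H2B.9 without WT-1, WT-3, P1MH-1 or P1MH-3. Without a filter H2B.4 and H2B.9 were lost, the latter also with the replicate block after rescaling.

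**Figure D4:**
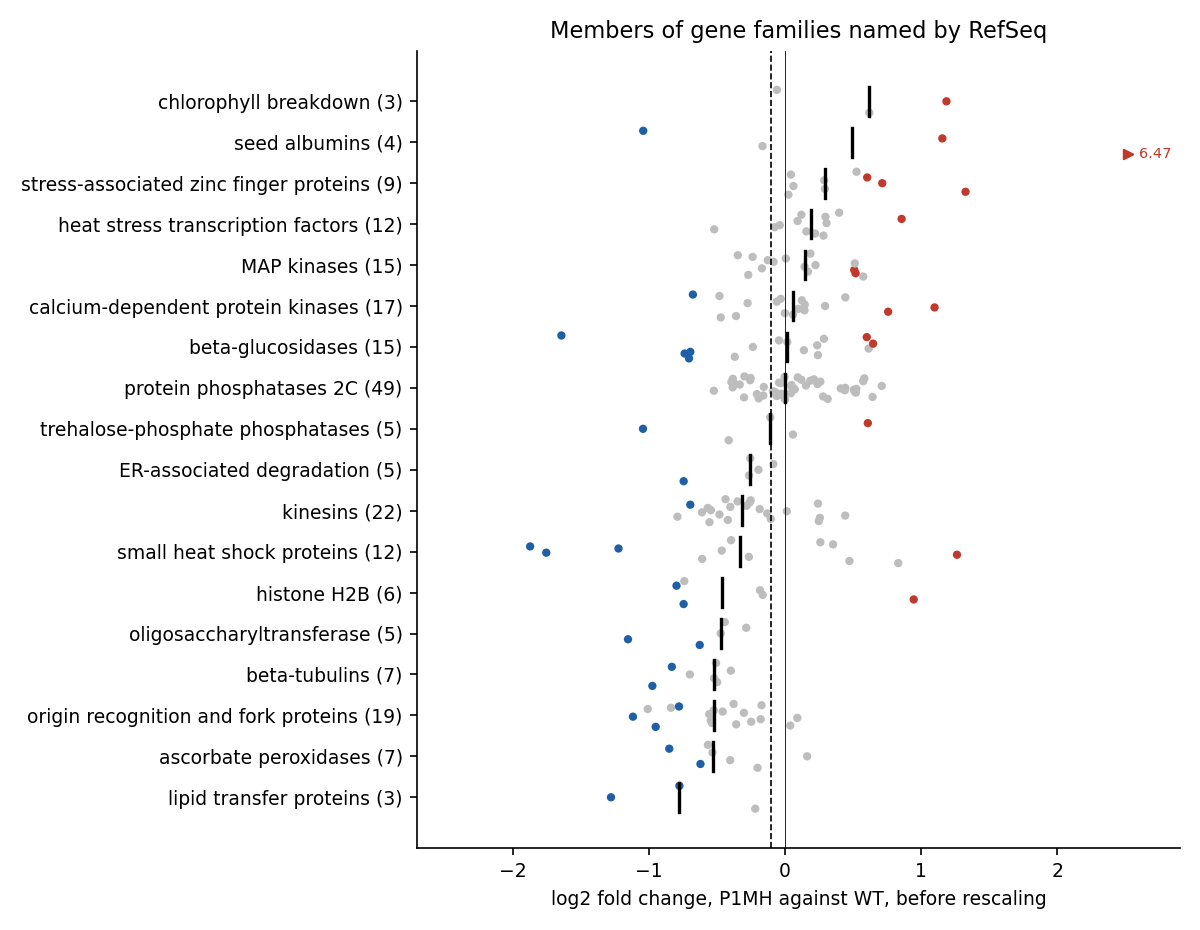
Log2 fold change of P1MH against WT before rescaling for the tested members of 18 gene families named by RefSeq and set up after values were seen, sorted by family median (black bar), with the number tested in brackets. Red and blue points were called higher or lower under both scalings and grey points were not; the dashed line is the median of all loci (-0.10), and all 7 beta-tubulins and all 5 oligosaccharyltransferase subunits lie left of it.

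Genes of embryo and aleurone maturation were higher in P1MH. Of 13 tested, 9 rose under both scalings and none fell, against the background of 3.18% higher before and 4.10% after, and the median log2 fold change was 1.13 before and 1.24 after rescaling. RAB16A, RAB16B and RAB16C are dehydrins, proteins of desiccation tolerance induced by abscisic acid, and lie together on chromosome 11 between 15327768 and 15343857. RAB16A stood at 75.1, 41.2 and 31.7 RPKM in WT and at 227, 120 and 179 RPKM in P1MH (log2 change 1.85, SE 0.33, limma adjusted p = 0.00585; 0.00573 after rescaling). RAB16B stood at 2.27, 1.03 and 1.23 RPKM and at 7.25, 4.19 and 3.70 RPKM (1.26, SE 0.25, limma adjusted p = 0.00846; 0.00804 after rescaling). For both, WT-1 was the highest WT library and P1MH-1 the highest P1MH library, without overlap. RAB16C was low, with 5 reads in WT against 31 in P1MH (0.300 and 2.08 RPKM, ratio 6.96 with a counting interval of 2.71 to 23.2, limma adjusted p = 0.0375; 0.0443 after). The RAB16 genes are close copies, so reads shared between them leave single members uncertain.

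Oil body proteins coat the lipid droplets of embryo and aleurone. OLE18, an oleosin, stood at 358, 358 and 301 RPKM in WT and at 698, 506 and 795 RPKM in P1MH (log2 change 0.95, SE 0.20, limma adjusted p = 0.0103; 0.00813 after rescaling). PXG, a caleosin with peroxygenase activity, stood at 25.3, 28.5 and 18.9 RPKM and at 83.6, 41.3 and 44.4 RPKM (1.13, SE 0.24, limma adjusted p = 0.0127; 0.0121 after rescaling). RASI, the bifunctional alpha-amylase and subtilisin inhibitor, stood at 187, 137 and 118 RPKM and at 824, 332 and 580 RPKM (1.90, SE 0.31, limma adjusted p = 0.00318; 0.00383 after rescaling). None of these groups overlapped, and P1MH-1 was the highest library for PXG and RASI. The other 3 loci that rose have no checked name.

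Of the 4 members not called, LEA3 and Em, late embryogenesis abundant proteins, averaged 92.5 and 134 RPKM and 62.0 and 112 RPKM (0.67 and 0.83, limma adjusted p = 0.400 and 0.290). VP1, the transcription factor of seed maturation, averaged 4.43 and 5.06 RPKM (0.14, limma adjusted p = 0.783). LIP9, another dehydrin, had a negative value at 56.1 and 32.4 RPKM (-0.76, SE 0.26, limma adjusted p = 0.0953). The 7 embryo and aleurone markers summed to 994, 802 and 642 RPKM in WT and to 1820, 1199 and 1644 RPKM in P1MH, with AMY1A at 0 and 3 of the 6 tested higher. A larger share of embryo or aleurone RNA and more RNA of these genes per cell cannot be told apart. The 9 calls became 4 without WT-3 before rescaling and 5 after it. RAB16A, RAB16B and RASI kept their calls under every alternative tried, OLE18 and PXG were lost without WT-3 (highest adjusted p = 0.0572 and 0.0656), and RAB16C was lost without any 1 library (highest adjusted p = 0.147), with a pseudocount of 0.1, without a filter and with the replicate block.

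Abscisic acid drives seed maturation, and ABA8OX2, a hydroxylase that breaks it down, fell. It stood at 14.0, 9.95 and 8.54 RPKM in WT and at 4.50, 4.93 and 4.88 RPKM in P1MH (log2 change -1.01, SE 0.17, limma adjusted p = 0.00326; 0.00563 after rescaling). The P1MH libraries lay close together below all WT libraries, and the gene was called under every alternative. ABA8OX1, another hydroxylase, averaged 2.71 and 1.14 RPKM (-0.84, SE 0.25, limma adjusted p = 0.0571). TRAB1, a bZIP factor of abscisic acid signalling, stood at 15.9, 11.7 and 10.4 RPKM and at 17.6, 14.9 and 16.2 RPKM, with overlap. In the list of 6 tested, 1 fell under both scalings, beside 3.59% of all tested loci. A further 2 loci with no checked name were higher after rescaling only.

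SGR, the stay-green protein that starts chlorophyll breakdown, rose from 2.05, 1.82 and 1.93 RPKM to 8.66, 4.94 and 4.19 RPKM, and was chosen after its values were seen (log2 change 1.19, SE 0.23, limma adjusted p = 0.00671; 0.00675 after rescaling). NYC1, a chlorophyll b reductase, averaged 9.61 and 15.1 RPKM and was higher after rescaling only (limma adjusted p = 0.0355; 0.0612 before). SGR was above all WT libraries in each P1MH library and was called under every alternative, while NYC1 overlapped. The 2 genes belong to a family of 3 chlorophyll breakdown genes, of which 1 rose, beside 3.17% of all tested loci. The third gene was not called under either scaling (log2 change -0.06 before rescaling).

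Photosynthesis genes mark the green pericarp of the dehulled seed. Of 19 tested, 2 fell before rescaling and 1 after, beside 5.63% and 3.59% of all loci. The median log2 fold change was -0.22 before and -0.11 after. RBCS2, a small subunit of Rubisco, stood at 13.1, 12.3 and 13.1 RPKM in WT and at 8.22, 5.47 and 6.60 RPKM in P1MH (log2 change -0.85, SE 0.16, limma adjusted p = 0.00671; 0.0180 after rescaling). Plastocyanin, an electron carrier, fell before rescaling only (52.9 to 33.0 RPKM, limma adjusted p = 0.0259; 0.0752 after). CAB1R and CAB2R, chlorophyll a/b binding proteins, averaged 161 and 165 RPKM and 105 and 89.8 RPKM, with overlapping groups. The RBCS2 call was lost after rescaling without WT-1, WT-2, WT-3 or P1MH-2 (highest adjusted p = 0.0778). The 6 green tissue markers summed to 363 to 430 RPKM in WT and 296 to 400 RPKM in P1MH.

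In the heat shock list, 1 of 12 tested genes fell and none rose, beside 3.59% and 3.17% of all tested loci. HSP26.7, a small heat shock protein of the chloroplast, stood at 17.68, 13.8 and 13.1 RPKM in WT and at 4.16, 3.90 and 3.02 RPKM in P1MH (log2 change -1.75, SE 0.25, limma adjusted p = 0.000834; 0.00245 after rescaling). The fall was 4-fold in mean RPKM, far outside the spread of either group, and was called under every alternative. HSP16.9A, a cytosolic small heat shock protein, stood at 111, 65.6 and 61.5 RPKM and at 104, 86.9 and 134 RPKM, and HSP81-1, a cytosolic HSP90, at 81.6, 69.8 and 71.3 RPKM and at 74.3, 74.2 and 63.5 RPKM. In both the groups overlapped, and their values did not pass the test.

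Antioxidant genes gave 1 fall under both scalings among 11, beside 3.59% of all tested loci. APX1, a cytosolic ascorbate peroxidase, stood at 25.2, 23.8 and 24.15 RPKM in WT and at 13.6, 14.6 and 18.8 RPKM in P1MH (log2 change -0.62, SE 0.14, limma adjusted p = 0.0184; 0.0449 after rescaling). MnSOD, the mitochondrial superoxide dismutase, fell before rescaling only, from 290, 337 and 341 RPKM to 177, 212 and 205 RPKM (-0.70, SE 0.17, limma adjusted p = 0.0224; 0.0639 after rescaling). Both were lower in every P1MH library. The APX1 call was lost without WT-1, WT-2, WT-3, P1MH-1 or P1MH-2 (highest adjusted p = 0.135), and also under quantile and upper-quartile rescaling, rescaling without the 50 highest loci and the replicate block after rescaling. The MnSOD call was likewise lost under each of these 3 other scalings. PDC2, a pyruvate decarboxylase of fermentation, stood at 182, 187 and 170 RPKM and at 136, 187 and 199 RPKM.

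In 7 of the 20 lists, no locus was called in either direction by limma under either scaling. Of their 52 loci, 20 had an unadjusted limma p under 0.05 before rescaling and 14 after it. Over all 16064 tested loci the same counts were 3968 and 3653. The lists held RBP-P and its partners, cell cycle regulators, alpha-amylases, clock genes, genes of nitrogen and amino acids, lipid and defence genes and housekeeping genes. VPE1, the vacuolar processing enzyme that cleaves proglutelin, stood at 141, 127 and 112 RPKM in WT and at 104, 122 and 102 RPKM in P1MH. RAB5A, a small GTPase of glutelin transport, stood at 15.2, 19.1 and 17.43 RPKM and at 13, 16.2 and 20 RPKM. Both overlapped between genotypes. AMY2A, an alpha-amylase, stood at 1.40, 0.437 and 1.35 RPKM and at 1.98, 2.26 and 4.71 RPKM, with no overlap (0.92, SE 0.27, limma adjusted p = 0.0553; 0.0520 after rescaling).

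The clock component PRR95 averaged 76.2 and 56.2 RPKM with no overlap (-0.43, limma adjusted p = 0.0774), and PRR73 averaged 61.0 and 57.0 RPKM. Housekeeping genes had the lowest median of these lists, -0.56 before and -0.45 after rescaling. RPS27AA, a ubiquitin fusion with a ribosomal protein, stood at 211, 200 and 241 RPKM in WT and at 130, 160 and 153 RPKM in P1MH. Its groups were apart, without passing the test (-0.56, SE 0.19, limma adjusted p = 0.0971; 0.209 after rescaling). In the chromatin list 1 of 10 loci, with no checked name, fell, beside 3.59% of all tested loci. FIE2, a Polycomb protein of the endosperm, averaged 29.9 and 22 RPKM (-0.43, limma adjusted p = 0.0560), and EZ1, a Polycomb methyltransferase, averaged 15 and 16.3 RPKM (0.11, limma adjusted p = 0.656).

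**Figure D5:**
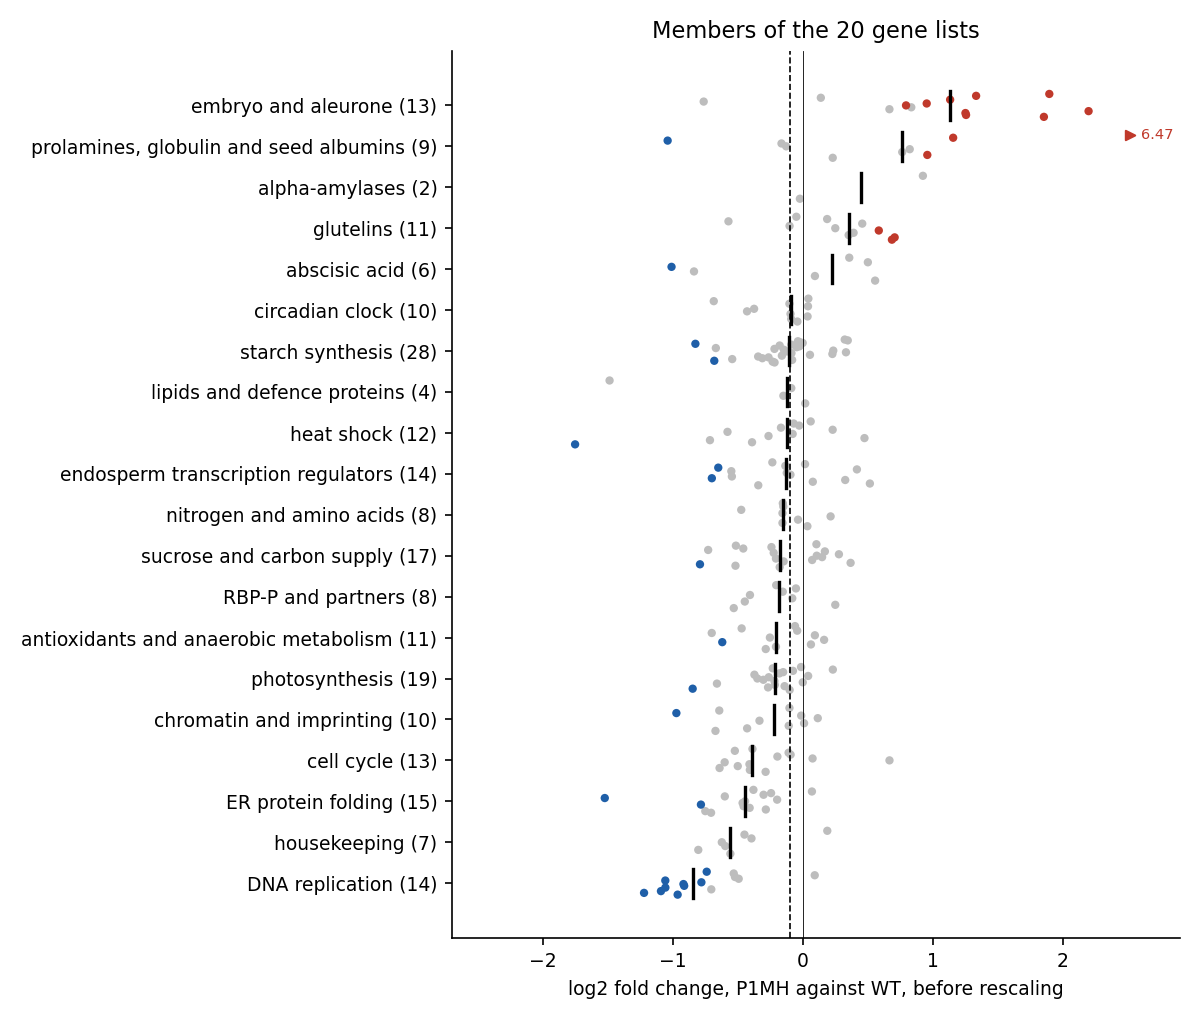
Log2 fold change of P1MH against WT before rescaling for the tested members of the 20 gene lists, sorted by list median (black bar), with the number tested in brackets. Red and blue points were called higher or lower under both scalings and grey points were not; the dashed line is the median of all loci (-0.10), arrows mark values beyond the axis, and DNA replication (median -0.85) and embryo and aleurone genes (1.13) hold the most calls.

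Some loci were read in only 1 genotype. At 30 of the loci that rose, all 3 WT libraries were at 0, with P1MH means of 1.08 to 19.3 RPKM and a median of 2.97 RPKM. At 37 of the loci that fell, all 3 P1MH libraries were at 0, with WT means of 2.43 to 108 RPKM and a median of 9.17 RPKM. P3MH was at 0 in all its libraries at 30 of the 37. Every one of the 37 had a value midway between whole reads in at least 1 WT library, as had 84.0% of all tested loci, 72.9% of those that rose and 85.8% of those that fell. Of the 37 loci, 4 (10.8%) could be paired with a RefSeq gene, against 79.8% of all tested loci and 14 (46.7%) of the 30.

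The largest falls among loci with no name were at LOC_Os08g15276 (chromosome 8, 9265773 to 9266144) and LOC_Os04g16828 (chromosome 4, 9157268 to 9157639), both with an exon length of 372 bases. LOC_Os08g15276 stood at 92.9, 113 and 117 RPKM in WT and at 0 in all P1MH libraries, at least 83.8-fold lower against a floor of 3 reads per library. LOC_Os04g16828 stood at 86.4, 106 and 110 RPKM in WT and likewise at 0, at least 78.3-fold lower. The near-equal values of the 2 loci in each library leave it uncertain whether they share reads. Among the largest rises, LOC_Os11g01170 went from 0, 0 and 0.510 RPKM in WT to 34.8, 32.2 and 26.5 RPKM in P1MH, a ratio of 183 with a counting interval of 78.4 to 567. LOC_Os06g31060 went from 0, 0.0986 and 0 RPKM to 27.2, 30.2 and 20.2 RPKM, a ratio of 787 with a counting interval of 66.6 to 14800. All 4 were called under every alternative tried, with limma adjusted p of at most 0.000122.

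P1MH and P3MH were also compared directly. The test between the mutants called 5 of 16064 loci (0.0311%) in the values as deposited and 5 after rescaling, and none of the 59 loci picked by the naming rule and no member of the 20 lists was among them. At an unadjusted p under 0.05, it was 2054 of all loci and 21 of the 59. Of the 59, 29 were picked because P1MH differed from WT, and the same P1MH values enter this test. Their larger share follows in part from that choice and is a description only. Both mutants share the WT libraries as controls. RASI stood at 248, 426 and 319 RPKM in P3MH against a P1MH mean of 579 RPKM (difference 0.74, SE 0.31, limma adjusted p = 0.348), and PDIL1-1 at 2608, 3170 and 1906 RPKM against 1468 RPKM (-0.78, limma adjusted p = 0.194). GluA-1 stood at 17330, 13845 and 16685 RPKM in P3MH against 22462 RPKM in P1MH (0.50, limma adjusted p = 0.319). None of these 3 differences between the mutants passed the test.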

How the data were processed

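The authors deposited 1 table of RPKM values per locus and library, per the file headers. How reads were aligned and counted, and on which genome build, is not given in the sources used here. Coordinates are those of the table. All per-sample columns were matched to libraries by name, and 0 were left unused.

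The test was limma (trend and robust options on) with log2(RPKM + 1), for loci averaging at least 1 RPKM. A single model with a term for each genotype was fitted to all 9 libraries, and Benjamini-Hochberg adjustment ran over 16064 loci, with a threshold of 0.05. The fit was repeated after median-ratio rescaling. P-values measure the spread between the biological repeats. Count tests were not used, since values midway between whole reads occurred in WT. Library totals and exon lengths were recovered from the spacing of the values, where 1 read is worth a fixed step, with totals sought within a set range. Intervals (95%) and floors (3 reads) cover counting error only.

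The table holds no gene names. Loci were paired with the RefSeq gene table of assembly ASM3414082v1 by span (0.8 to 1.25 times) and by the distances to neighbouring loci, which paired 21986 loci, 12814 of them tested. A name was printed only where a paired RefSeq gene carries it. Of 260 loci in 20 gene lists, 258 were in the table, 231 were tested and 130 of these had a checked name. The genes named were RBP-P, the list members with a checked name that were called under both scalings or, with fewer than 2, the 2 of highest level, and the 2 largest rises and 2 largest falls among loci with no name. Other list members are named for context, and 18 families named by RefSeq were set up after values were seen and carry no test of their own. The members and lists were chosen with earlier results of these data known.

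The alternatives were median-ratio, quantile and upper-quartile rescaling, rescaling without the 50 highest loci, a pseudocount of 0.1, a minimum mean of 5 RPKM, no filter, the 6 libraries alone, limma without trend and robust moderation, the replicate number as a block, and leaving out each library. Software was Python 3.11.15 with pandas 2.3.3, scipy 1.17.1, numpy 2.4.6 and matplotlib 3.10.9, and limma 3.58.1 in R 4.3.3.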

Additional observations from a re-analysis of the deposited data

How the results depend on the processing

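The counts were 511 higher and 905 lower loci in the values as deposited. The lower count was 577 after median-ratio rescaling, 583 after quantile normalization, 589 after upper-quartile rescaling and 523 with the total taken without the 50 highest loci, where the higher counts were 659, 734, 664 and 719. A mean of at least 5 RPKM left 332 higher loci, fewer loci being tested. Without a filter 370 were higher and 781 lower. Leaving out 1 library gave 218 to 451 higher and 404 to 804 lower loci before rescaling, and 255 to 603 and 260 to 503 after it. Over all lists, 15 loci were higher and 27 lower before rescaling and 17 and 22 after it. Leaving out 1 library gave 5 to 13 and 14 to 28 before and 7 to 16 and 6 to 16 after, and quantile normalization gave 17 lower. The median log2 fold change of all loci, -0.099, was -0.0051 after median-ratio rescaling, alone or with the block, 0.0033 after quantile normalization, -0.0065 after upper-quartile rescaling, 0.018 without the 50 highest loci, -0.043 without a filter and -0.116 to -0.0839 without single libraries before rescaling and -0.0075 to -0.0042 after it. The causes were not tested beyond what each setting changes by construction. Differences in the share of RPKM ranged, without single libraries, from 7.24 to 8.17 points (10 highest loci), 2.34 to 4.80 (50), 2.23 to 4.46 (100), 7.66 to 8.74 (glutelins) and 0.618 to 1.18 (prolamines, globulin and albumins).

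WT and P1MH libraries with the same replicate number deviated from their group means with correlations of 0.097, -0.004 and 0.011, so the numbers were not taken as pairs. With the number as a block, 442 loci were higher and 736 lower before rescaling and 526 and 435 after it, with 11 higher and 14 lower list loci after rescaling.

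Of the 29 named loci called under both scalings, 12 were called under every alternative and 20 under every one that kept all libraries, and none changed sign. Leaving out 1 library left between 13 (without WT-3, after rescaling) and 25 of the 29 called. Of the 36 further family members called, it left between 13 (without WT-3, after rescaling) and 34.

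Signs changed only for genes that were not called. In the order of median-ratio, quantile and upper-quartile rescaling and rescaling without the 50 highest loci, the log2 fold changes turned positive for RAB5A (0.0246, 0.0361, 0.0233, 0.0511), AMY3E (0.0866, 0.110, 0.0852, 0.114), HSP81-1 (0.0408, 0.105, 0.0393, 0.0683), CAB1R (0.111, 0.210, 0.110, 0.139), PRR73 (0.0158, 0.0785, 0.0143, 0.0431), PDC2 (0.0516, 0.119, 0.0502, 0.0794) and OC-I (0.0176, 0.0138, 0.0160, 0.0435). Quantile normalization turned BEI (0.0865), BADH2 (0.0043) and SSI2 (0.0167), and the total without the 50 highest loci turned RBR2 (0.0183). Without single libraries, values before rescaling ranged from -0.185 to 0.152 for AMY3E, -0.202 to 0.227 for CAB1R, -0.0035 to 0.0894 for GS1-1, -0.113 to 0.0039 for HSP81-1, -0.00091 to 0.114 for KRP1, -0.257 to 0.113 for OC-I, -0.167 to 0.109 for PDC2, -0.228 to 0.0638 for RAB5A and -0.215 to 0.0393 for RBR2. After rescaling they ranged from -0.0722 to 0.245 for AMY3E, -0.0895 to 0.0349 for BADH2, -0.0966 to 0.362 for CAB1R, -0.0033 to 0.0992 for HSP81-1, -0.156 to 0.202 for OC-I, -0.0711 to 0.214 for PDC2, -0.0423 to 0.0772 for PRR73, -0.137 to 0.164 for RAB5A, -0.0918 to 0.136 for RBR2 and -0.122 to 0.0254 for SSI2.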

Other observations

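Further gene families, set up after values were seen and described without a test of the family, held genes that differed between P1MH and WT. The counts below stand beside 3.17% of all tested loci that rose and 3.59% that fell under both scalings. All 9 stress-associated zinc finger proteins (SAP), a family known for responses to abiotic stress, had positive log2 fold changes before rescaling, as had 37.6% of all tested loci, and 3 rose. SAP5 stood at 6.06, 5.77 and 3.70 RPKM in WT and at 18.5, 13.8 and 11.3 RPKM in P1MH (log2 change 1.33, SE 0.29, limma adjusted p = 0.0180; 0.0165 after rescaling). SAP8 stood at 132, 110 and 88.5 RPKM and at 171, 194 and 172 RPKM (0.71, SE 0.17, limma adjusted p = 0.0226; 0.00983 after rescaling). SAP16 averaged 6.15 and 9.99 RPKM. In none of the 3 did the groups overlap. SAP5 was lost without WT-3 or P1MH-1, SAP8 without WT-2, WT-3 or P1MH-2 and SAP16 without any library except P1MH-3, without a filter, with the 6 libraries alone, without trend and robust moderation and with the replicate block.

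Signalling kinases held calls in both directions. Of 15 MAP kinases, MPK8 (14.1 to 20.5 RPKM, limma adjusted p = 0.0295; 0.00960 after rescaling) and MPK3 (24.3 to 34.9 RPKM, limma adjusted p = 0.0468; 0.0162 after) rose. Of 17 calcium-dependent protein kinases, CPK7 stood at 39.4, 30.8 and 32.3 RPKM in WT and at 71.6, 45.9 and 59.8 RPKM in P1MH (0.76, SE 0.17, limma adjusted p = 0.0177; 0.0126 after), CPK12 averaged 3.11 and 8.22 RPKM (1.1, limma adjusted p = 0.0294; 0.0259 after) and CPK28 fell from a mean of 28.6 to 17.6 RPKM (-0.68, limma adjusted p = 0.0103; 0.0270 after). Of 49 protein phosphatases 2C, which include negative regulators of abscisic acid signalling, none was called before rescaling and PP2C31, PP2C36 and PP2C44 were higher after it. CPK7 was lost without WT-2, WT-3 or P1MH-1, CPK12 without the same 3, CPK28 after rescaling without any library except P1MH-1, MPK8 without any library except WT-1 and MPK3 without any 1 library under at least 1 scaling. With all libraries kept, MPK8 and MPK3 were also lost without trend and robust moderation and with the replicate block, MPK3 and CPK12 without a filter, CPK12 with the 6 libraries alone and CPK28 with the block after rescaling.

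Beta-glucosidases, which release sugars from glycosides, split within the family of 15. BGLU36 fell from 13.3, 14.5 and 15.3 RPKM to 4.44, 5.19 and 2.53 RPKM (-1.64, SE 0.23, limma adjusted p = 0.000656; 0.00112 after rescaling) and was called under every alternative. BGLU1, BGLU7 and BGLU8 fell from means of 24.7, 23.2 and 38.3 RPKM to 14.8, 13.8 and 23.4 RPKM, while BGLU25 and BGLU32 rose from 6.31 and 23.5 RPKM to 10.5 and 36.3 RPKM. Under at least 1 scaling these 5 calls were each lost without WT-2 or WT-3, BGLU7 and BGLU32 also without WT-1, and all but BGLU1 also without P1MH-1 (BGLU7, BGLU8 and BGLU25 without P1MH-3 too). BGLU7 and BGLU8 were also lost with the replicate block after rescaling, and BGLU8 in rescaling without the 50 highest loci.

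Of 3 lipid transfer proteins, LTP110-B fell from 180, 186 and 179 RPKM to 82.7, 88.4 and 56.0 RPKM (-1.28, SE 0.17, limma adjusted p = 0.000467; 0.00107 after rescaling) and LTPB-1 from 72.7, 73.3 and 74.2 RPKM to 42.8, 43.2 and 41.4 RPKM (-0.78, SE 0.14, limma adjusted p = 0.00568; 0.0124 after). LTPB-1 was lost after rescaling without WT-2 or WT-3. The trehalose-phosphate phosphatase TPP3 fell from 40.1, 43.0 and 60.7 RPKM to 19.2, 29.4 and 19.8 RPKM (-1.04, SE 0.19, limma adjusted p = 0.00448; 0.00899 after), and TPP6 averaged 6.87 and 11.0 RPKM (0.61, limma adjusted p = 0.0410; 0.0319 after), a call lost without any library except P1MH-2, without a filter, without trend and robust moderation and with the replicate block. APx6, an ascorbate peroxidase, fell from 29.1, 25.4 and 35.9 RPKM to 16.7, 15.7 and 16 RPKM (-0.85, SE 0.15, limma adjusted p = 0.00406; 0.00899 after), a call lost after rescaling without WT-3 (adjusted p = 0.0513).

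Heat stress genes outside the fixed list also differed, though the families counted here can share members with that list. HSFC2B, 1 of 12 heat stress transcription factors, rose from 10.8, 10.8 and 11.3 RPKM to 25.6, 17.1 and 20.1 RPKM (0.86, SE 0.15, limma adjusted p = 0.00404; 0.00331 after rescaling) and was called under every alternative. Of 12 small heat shock proteins, Hsp23.2 stood at 6.22, 2.83 and 1.35 RPKM in WT and at 0, 0 and 0.325 RPKM in P1MH (-1.87, SE 0.33, limma adjusted p = 0.00428; 0.00653 after). Hsp18.1 averaged 3.91 and 1.08 RPKM (-1.22, limma adjusted p = 0.00627; 0.0129 after), and Hsp18.6 averaged 3.07 and 9.30 RPKM (1.26, limma adjusted p = 0.0295; 0.0270 after). Hsp18.1 was lost after rescaling without WT-1 or WT-2, and Hsp18.6 without WT-1, WT-3 or P1MH-1 or without a filter.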
